A study of Mus musculus with 2 samples.

Results

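The cells described here were a fibroblast population of the mouse aorta that expressed Fmod and Wisp2. They were 196 of the 8155 cells kept from both libraries, 184 of 5416 in the ND library and 12 of 2739 in the HFD library. Cells were chosen by the values measured in them. Kept cells had 200 or more UMIs (unique molecular identifiers, 1 for each captured RNA molecule) from 200 or more genes, with no more than 30% of UMIs from mitochondrial genes. It was gated as a fibroblast when it held a UMI of at least 3 of the 6 genes Dcn, Col1a1, Col1a2, Col3a1, Pdgfra and Lum, no UMI of the leukocyte gene Ptprc, and not both of the endothelial genes Pecam1 and Cdh5. Cells with more than 2 Cxcl14 UMIs were then set apart. A gated cell was a member when it held at least 2 of the 5 genes Fmod, Wisp2, Cpxm2, Hhip and Rbp4, and more of them than of the 5 genes that define Pi16-type fibroblasts (Pi16, Cd248, Sema3c, Pcsk6, Gfpt2) or of the 5 that define Inmt-type fibroblasts (Inmt, Gdf10, Ism1, Ptgfr, Nbl1). These 15 genes chose the cells, so their levels are a description only.

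Both libraries came from the aortic arch of Apoe−/− mice on the C57BL/6 strain at 16 weeks of age, which carry the knockout on either diet. The ND mice were given normal chow and the HFD mice a high-fat diet. Each library pooled the digested aortas of 2 mice, and there was 1 library per diet, so diet and library cannot be told apart and no difference was tested. Levels are given as CPM, the UMIs of a gene scaled to the total UMIs of the same cells, and every interval in parentheses is an exact 95% interval that covers counting error only. The kept cells held 27137322 UMIs in ND and 17191279 in HFD, with medians of 3732.5 and 5336 UMIs per cell and of 16.8% and 21.9% mitochondrial UMIs. Apoe itself was listed at 8.76 CPM in ND members and at 1 UMI in the HFD members with 3 or more rule genes. Since both groups carry the knockout, it does not check the diet labels. Of 39 barcodes found in both libraries, 0 were members in either.

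Fibroblasts of the vessel wall build the extracellular matrix of the adventitia, the outer coat. Fibromodulin, the product of Fmod, is a small leucine-rich proteoglycan that binds collagen fibrils and regulates their assembly. Elastic fibres consist of an elastin core, made from Eln, on a scaffold of fibrillin microfibrils, with fibulins, Mfap4 and lysyl oxidases taking part in their assembly. Wisp2 is a member of the CCN family of matricellular proteins, secreted proteins that modulate how cells respond to matrix and growth factors. Hhip binds hedgehog ligands and is itself a hedgehog target gene, Rbp4 carries retinol, and Cpxm2 is a member of the carboxypeptidase family.

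Promoters are shown for 4 genes, Fmod and Cpxm2 because they define the cells, and Cyr61 and Igfbp5 because their levels in members differed most between the libraries among the genes looked for that had an entry. This choice was made after the values were seen. RefSeq promoters on GRCm38.p6 were found for 8 of 13 genes looked for, each 300 bases long, from 250 before to 50 after the start of the gene. The letters of 3 motifs were searched on both strands. Capitals mark GGAATG or its reverse complement CATTCC, the core bound by TEAD factors, and TATAAA or TTTATA. The first was in 14.7% and the second in 13.6% of all 32851 promoters of this length. The third, GACCACCCA or TGGGTGGTC, bound by GLI factors, was in 0.253% of them and in none of the 4 shown. No motif overlapped another in the sequences shown. Fmod lies at chr1:134037254-134048277 on the plus strand (GENCODE M21 on GRCm38), and its promoter at chr1:134037004-134037303 held none of these letters. Cpxm2 lies at chr7:132032687-132154739 on the minus strand, with its promoter at chr7:132154692-132154991. Cyr61, which RefSeq calls Ccn1, lies at chr3:145646976-145649981 on the minus strand, with its promoter at chr3:145649936-145650235. Igfbp5 lies at chr1:72857932-72874884 on the minus strand, with its promoter at chr1:72874816-72875115.
Fmod: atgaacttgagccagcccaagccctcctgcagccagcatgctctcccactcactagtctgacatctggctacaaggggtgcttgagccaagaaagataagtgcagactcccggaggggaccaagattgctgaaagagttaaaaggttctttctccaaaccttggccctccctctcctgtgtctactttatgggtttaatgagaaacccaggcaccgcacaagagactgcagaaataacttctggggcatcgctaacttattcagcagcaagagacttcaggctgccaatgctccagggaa
Cpxm2: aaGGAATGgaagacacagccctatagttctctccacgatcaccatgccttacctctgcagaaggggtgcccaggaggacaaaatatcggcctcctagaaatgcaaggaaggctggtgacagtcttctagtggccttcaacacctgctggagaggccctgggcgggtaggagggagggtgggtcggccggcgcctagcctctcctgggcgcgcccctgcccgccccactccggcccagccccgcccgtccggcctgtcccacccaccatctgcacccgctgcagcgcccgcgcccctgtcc
Cyr61: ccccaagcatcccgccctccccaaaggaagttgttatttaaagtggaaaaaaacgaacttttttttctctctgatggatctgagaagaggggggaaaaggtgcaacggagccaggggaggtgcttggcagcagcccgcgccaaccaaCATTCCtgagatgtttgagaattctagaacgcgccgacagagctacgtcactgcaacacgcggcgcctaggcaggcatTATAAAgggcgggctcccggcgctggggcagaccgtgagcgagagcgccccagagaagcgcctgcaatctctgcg
Igfbp5: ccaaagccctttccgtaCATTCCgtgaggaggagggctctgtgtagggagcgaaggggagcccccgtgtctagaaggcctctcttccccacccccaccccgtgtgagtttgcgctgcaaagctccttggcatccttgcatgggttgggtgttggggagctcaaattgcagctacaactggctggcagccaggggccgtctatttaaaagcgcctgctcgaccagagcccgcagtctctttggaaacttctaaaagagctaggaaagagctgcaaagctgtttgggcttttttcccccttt

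The rule, which asks for at least 2 of its genes in a cell, was met by different genes in different cells. Fmod was detected in 87.5% of the 184 ND members, Rbp4 in 82.1%, Cpxm2 in 73.9%, Wisp2 in 67.9% and Hhip in 51.6%. Fmod and Wisp2 were found together in 109 members. In ND macrophages, which should lack Fmod, 1.37% of cells held a UMI of it, at a median of 5112 UMIs per cell against 2867.5 in the members. The level of Fmod was 1549 CPM in ND members, 50.1 in ND Pi16-type and 122 in ND Inmt-type cells. Wisp2 was at 990 CPM in ND members, against 37.8 and 123 in these classes, and Hhip at 538 CPM, against 11.8 and 137. Genes of the other classes were not absent. Pi16 was at 1118 CPM in ND members against 8156 in Pi16-type cells. Gdf10, an Inmt-type gene, was at 722 CPM in ND members and 596 in ND Inmt-type cells. Of the ND members, 20 held 2 of the 5 rule genes, 63 held 3, 66 held 4 and 35 held all 5.

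Mfap4 was the marker of this population that the rule had not used, and its level was in the direction of the label. Markers and members were chosen with earlier results of these data known, so this is no independent check of the label. Mfap4 encodes an elastic fibre glycoprotein and lies at chr11:61485431-61488900. ND members held it at 2578 CPM (2448-2713), with 0 to 39 UMIs per cell and a median of 6, and 94.6% of them had at least 1 UMI. Its level was 217 CPM in ND Pi16-type and 761 in ND Inmt-type cells, and 3.02% of ND macrophages held a UMI of it. The log2 ratio of members over Pi16-type cells was 3.57 (3.42-3.72), and over Inmt-type cells 1.76 (1.60-1.92). Mfap4 was higher the more rule genes a cell held, at 1599, 2163, 2682 and 3264 CPM in ND members with 2, 3, 4 and 5 of them. Just outside the rule stood 37 ND cells whose 2 or more rule genes tied with another class, at 1410 CPM of Mfap4. Another 13 ND cells held 1 rule gene and no gene of the other classes, and were at 147 CPM.

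**Figure D1:**
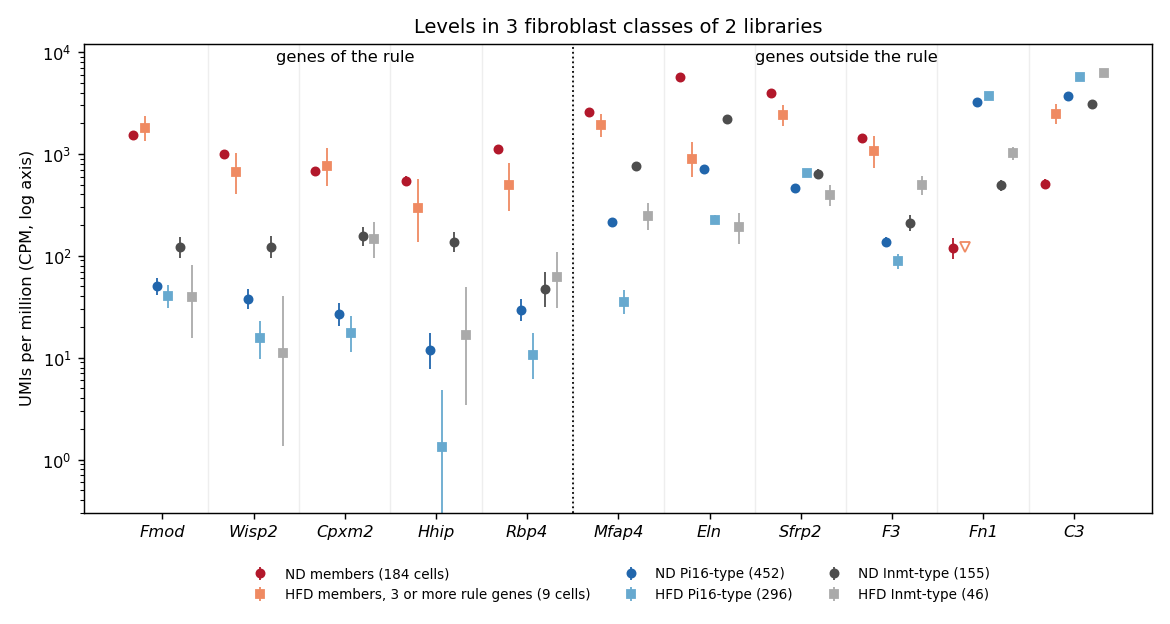
Levels of 11 genes (CPM on a log axis) in members, Pi16-type and Inmt-type cells of each library, with 95% Poisson intervals as bars, drawn to the left of the dotted line for genes of the rule. The open triangle marks Fn1 in the 9 HFD members, which was at 0, drawn at its upper limit. HFD members are the 9 with 3 or more rule genes. The other 3 of the 12, set aside for their Mfap4 counts, held all 536 Fn1 UMIs and are not drawn. In the sets drawn, Mfap4, Sfrp2 and F3 were above both other classes in both libraries, and Fn1 was below both.

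Markers of other cell types differed in level in the ND members. The 5 T cell markers had 0 UMIs, and 5 of 6 mesothelial markers were at 0, with a sum of 17.5 CPM against 499 CPM in Pi16-type cells. Macrophage markers summed to 63.1 CPM, B cell markers to 31.5, endothelial markers to 102 and lung mesenchyme markers to 22.8. Markers of club cells, secretory cells of the airway, were at 15515 CPM over all kept ND cells. They were at 258 CPM in ND members and at 2270 in ND Pi16-type cells. Pericyte markers were at 652 CPM in ND members against 231 over all kept ND cells, and smooth muscle markers at 613 against 368. Erythroid markers were at 943 CPM against 3917. The fibroblast genes that the rule had not used were all detected, at 14292 CPM in ND members and 23444 in ND Pi16-type cells. Of these 10, Col6a3, Serpinf1 and Pdgfrb were higher and Gsn, Clec3b, Mfap5 and Fbn1 lower than in Pi16-type cells by the measure given next.

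The first comparison asked how ND members differed from the Pi16-type cells of the same library, which were the largest fibroblast class (452 cells). A gene was compared when both classes together held at least 50 UMIs, and counted when its levels differed at least 2-fold, with 10 CPM added to both sides, and the whole interval of the log2 ratio lay on one side of 0. By this measure 295 of 6659 genes (4.43%) were higher and 480 (7.21%) lower in members, with a median log2 ratio of −0.11 over all genes. The elastic fibre list split. Of 19 genes compared out of 20 listed, 8 were higher (Eln, Mfap4, Fbln1, Fbln5, Emilin1, Ltbp2, Ltbp3, Lox) and 5 lower (Fbn1, Mfap5, Fbln2, Efemp1, Emilin2), with a list median of 0.23. The lists and the members were chosen with results of these data known, so no list is independent evidence of its direction.

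Among the higher genes, Eln, at chr5:134702593-134747323, was at 5679 CPM (5485-5878) in ND members, 714 in Pi16-type and 2188 in Inmt-type cells. Single members held 0 to 164 Eln UMIs, with a median of 10. Ltbp2, a latent TGF-beta binding protein that also associates with microfibrils, was at 366, 35.5 and 51.1 CPM in the same order. Fbln5, a fibulin required for elastic fibre assembly, was at 1663, 403 and 391 CPM. Lox, the enzyme that crosslinks elastin and collagen, was at 538, 94.7 and 340 CPM. Among the lower genes, Fbn1, the main fibrillin, was at 414 CPM in members against 1750, a log2 ratio of −2.08 (−2.28 to −1.89). Mfap5 was at 925 CPM against 2605, Efemp1 at 50.8 against 586, and Emilin2 at 7.01 against 333. Against Inmt-type cells, the log2 ratio of Fbn1 was 0.25 (−0.03 to 0.53) and that of Mfap5 0.12 (−0.07 to 0.30), and both intervals hold 0.

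Small proteoglycans were also high, and fibronectin was low. Of 7 small leucine-rich proteoglycan genes compared, 3 (Bgn, Prelp, Podn) were higher than in Pi16-type cells and 0 lower, with a median of 0.81. Bgn, which encodes biglycan, was at 7125 CPM in ND members, 1602 in Pi16-type and 3178 in Inmt-type cells. Prelp was at 1038, 306 and 500.4 CPM. Of 14 collagen genes compared, 4 were higher (Col6a3, Col4a2, Col15a1, Col16a1) and 1 (Col5a3) lower, with a median of 0.63. Of 12 genes of provisional and adhesive matrix, 2 (Comp, Sparc) were higher and 5 (Fn1, Tnxb, Vcan, Sparcl1, Nid1) lower, with a median of −0.73. Fn1, which encodes fibronectin, was at 119 CPM in ND members, 3212 in Pi16-type and 492 in Inmt-type cells. Sparc, a collagen-binding matricellular protein, was at 8252, 2555 and 3858 CPM. Tnxb, which encodes tenascin-X, was at 251, 1219 and 664 CPM.

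Secreted regulators of signalling differed gene by gene. Of 6 Wnt antagonist genes compared, Sfrp2, Frzb and Dkk3 were higher and Dkk2 lower than in Pi16-type cells, with a median of 1.16. Sfrp2, which binds Wnt ligands, was at 3959 CPM (3798-4126) in ND members, 466 in Pi16-type and 640 in Inmt-type cells. Against Inmt-type cells, Sfrp2 and Sfrp4 were higher and Sfrp1 and Sfrp5 lower, and Sfrp5 had 0 UMIs in members, at least 23.1-fold lower (3 UMIs over the group in place of 0). Of 8 hedgehog genes compared with Pi16-type cells, 3 were higher (Ptch1, Gli1, Boc) and 0 lower, with a median of 0.26. Gli1, a transcription factor and target gene of the pathway, was at 84.1 CPM, 24.6 in Pi16-type and 30.0 in Inmt-type cells. Ptch1, the hedgehog receptor and another target, was at 87.6, 26 and 37.0 CPM. Both were sparse, with 48 UMIs of Gli1 and 50 of Ptch1 over all ND members. Of 16 TGF-beta and BMP genes, Tgfb3, Bmp4 and Tgfbi were higher and Tgfbr3 and Bmp6 lower, with a median of 0.16. Tgfbi, a TGF-beta-induced matrix protein, was at 1173 CPM against 130 and 448.

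Growth factor and protease genes followed no single direction. Of 7 IGF genes, Igf1 and Igfbp7 were higher and Igfbp5 and Igfbp6 lower than in Pi16-type cells, with a median of −0.22. Igfbp5, a binding protein of insulin-like growth factors, was at 1782 CPM in ND members against 12611 in Pi16-type and 1427 in Inmt-type cells. Cyp26b1, which breaks down retinoic acid, was at 130 CPM against 12.8 and 37.0. Of 15 carboxypeptidase and protease genes, 6 (Cpe, Cpz, Mmp3, Adamts2, Adamts15, Pcolce) were higher and 1 (Adamts5) lower, with a median of 0.94. Mmp3, the protease stromelysin-1, was at 855 CPM against 81.5 and 171. Of 3 CCN genes compared, Ctgf was higher, at 3348 CPM against 689 and 1129.

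Genes of the immune response were mostly at or below the level of Pi16-type cells. Of 10 chemokine and cytokine genes compared, Cxcl12 was higher and 6 (Ccl2, Ccl7, Ccl11, Cxcl13, Il6, Csf1) were lower, with a median of −1.21. Ccl11, which encodes the eosinophil chemoattractant eotaxin, was at 14 CPM in ND members, 207 in Pi16-type and 210 in Inmt-type cells. Cxcl13 had 0 UMIs in members, at least 26.8-fold lower than in Pi16-type cells. C3, the central complement component, was at 507 CPM against 3688 and 3081. Of 10 MHC class I and interferon genes, 0 were higher and 4 (Ifit1, Ifit3, Isg15, Irf7) lower, with a median of −0.79.

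Beyond the lists, a ranking by the weaker ratio of both libraries gave the genes farthest above Pi16-type cells as Smoc1, Mfap4, Acta2, Mdk, Ltbp2, Lbh, Eln and Art4. This ranking took in all 12 HFD members. For Ltbp2, the 3 HFD members with 2 rule genes held 28 UMIs, and those with 3, 4 and 5 rule genes held 3, 0 and 2. Smoc1, which encodes a secreted calcium-binding matrix protein, was at 331 CPM in ND members against 11.4 in Pi16-type cells, a log2 ratio of 4.86 (4.26-5.53). Mdk, which encodes the growth factor midkine, was at 259 CPM against 16.9, Lbh, a transcription cofactor, at 337 against 26.4, and Art4 at 98.2 against 4.10. Acta2, which encodes smooth muscle actin, was at 263 CPM against 17.8, but at 345 CPM in ND Inmt-type cells. It ranked here on all 12 HFD members. Over the 9 with 3 or more rule genes it stood at 199 CPM against 209 in HFD Pi16-type cells. Acta2 was detected in 44.4% of these 9 cells and in 2.70% of HFD Pi16-type cells. In ND it was detected in 27.2% of members and 9.03% of Inmt-type cells, so few cells carried the level of either other class. The smooth muscle list summed to 613 CPM in ND members and 72.9 in Pi16-type cells, with Cnn1 and Des at 0, and the part of smooth muscle RNA in these ratios was not tested. Pericyte markers summed to 652 CPM against 138, with Higd1b and Vtn at 0. Among them, Abcc9, a potassium channel regulator, was at 465 CPM in ND members against 101. Against ND Inmt-type cells these lists were not raised. Of 4 smooth muscle genes compared, 0 were higher and Tagln was lower, and of 3 pericyte genes 0 were past 2-fold. At the low end stood Pla1a, Dpp4, Emilin2, Efhd1, Ly6c1, Adgrd1, Cadm3 and Ifi27l2a. Dpp4, a surface peptidase, had 0 UMIs in ND members, at least 36.5-fold lower. Pla1a was at least 38.8-fold, Efhd1 at least 50.7-fold and Cadm3 at least 27.7-fold lower. Ly6c1 was at 40.3 CPM against 975, Adgrd1 at 14 against 391 and Ifi27l2a at 77.1 against 1315.

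Against the 155 ND Inmt-type cells fewer genes reached the minimum of 50 UMIs. Of 3232 genes compared, 112 (3.47%) were higher and 102 (3.16%) lower in members, with a median of 0.01. Of 18 elastic fibre genes, 5 (Eln, Mfap4, Fbln5, Ltbp2, Loxl1) were higher and 1 (Efemp1) lower, with a median of 0.21. Of 13 adhesive matrix genes, 2 (Comp, Sparc) were higher and 7 lower, Fn1 and Vcan among them, with a median of −1.37. The same ranking, which takes in all 12 HFD members, placed Ltbp2, Cd200, Smoc1, Mmp3, Col12a1, Mical2, Fblim1 and Fat1 at the top. Cd200, an immune inhibitory surface protein, was at 689 CPM in ND members against 120 in Inmt-type cells. Fblim1, an adaptor of the actin cytoskeleton, was at 258 CPM against 54.6, Mical2 at 149 against 28.2 and Fat1 at 212 against 49.3. Col12a1 was at 199.8 CPM against 38.8, but had 0 UMIs in the 9 HFD cells described below, where its ratio with 10 CPM added was −1.69. For Mmp3 in HFD this ratio was −3.47 at a mitochondrial limit of 20%. The lowest were Apod, Ccl11, Sparcl1, Ifi27l2a, Penk, C3, Adh1 and Sned1. Apod, a lipid-binding apolipoprotein, was at 73.6 CPM against 1468, and Sparcl1 at 7.01 against 710. Penk was at 33.3 CPM against 245, Adh1 at 17.5 against 111 and Sned1 at 28.0 against 150.

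Cst3 and F3 stood above both classes in both libraries, with the HFD members taken as the 9 cells described below. They lie outside the rule for named genes, so they were chosen after their values were seen. Cst3, which encodes the protease inhibitor cystatin C, was at 12595 CPM in ND members, 1319 in Pi16-type and 3340 in Inmt-type cells, with 1 to 708 UMIs per cell. F3, which encodes tissue factor, the trigger of coagulation, was at 1421, 137 and 211 CPM. In the HFD library, these 9 members were at 10389 CPM of Cst3 and 1059 CPM of F3. HFD Inmt-type cells were at 492 CPM of F3. The other 3 HFD members, with 66.9% of the UMIs of all 12, held 0 UMIs of F3, so its order is given for the 9 only.

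**Figure D2:**
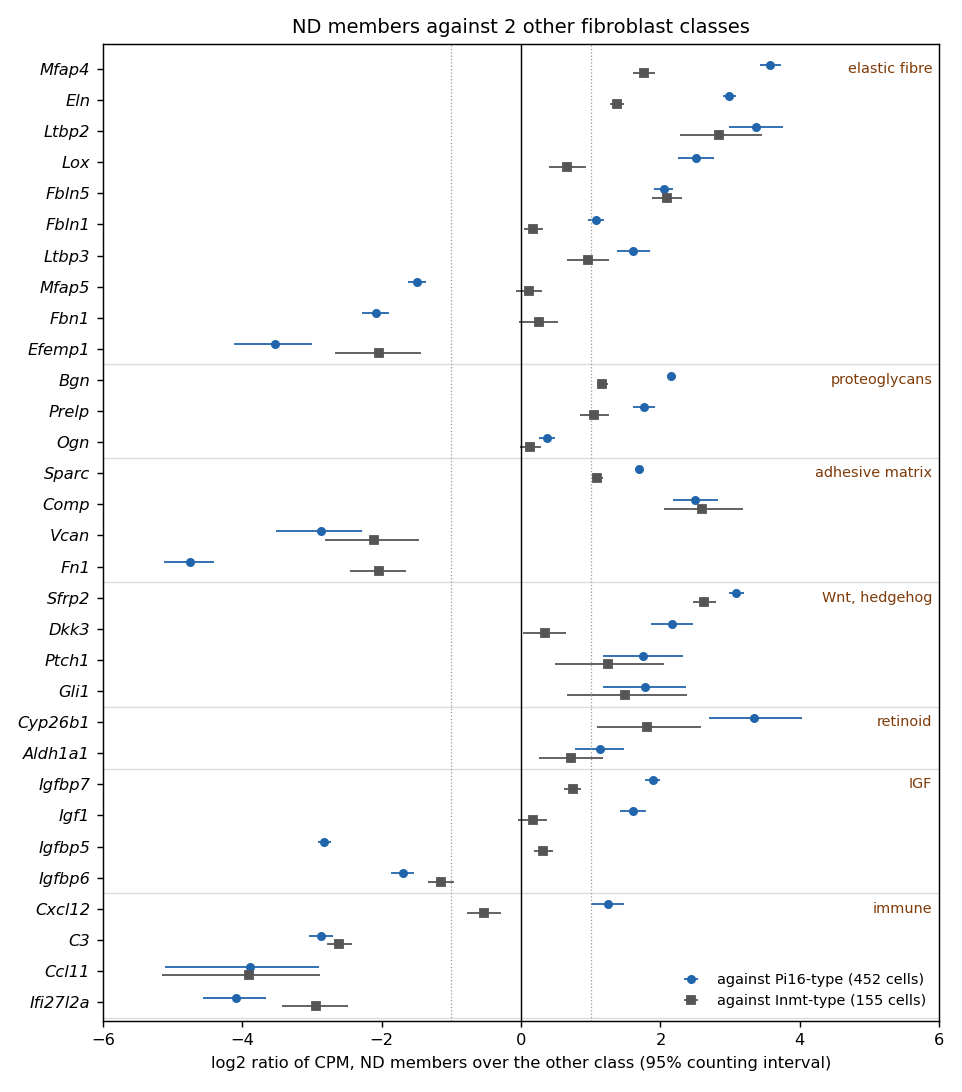
Log2 ratio of CPM in ND members over ND Pi16-type cells (circles) and over ND Inmt-type cells (squares) for 31 genes, with 95% counting intervals, by gene list. Dotted lines mark a 2-fold difference. Mfap4, Eln and Fbln5 lay right of both comparisons' 2-fold line, Fn1, Vcan and C3 left of it, and Fbn1 and Igfbp5 were low only against Pi16-type cells.

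The HFD members had to be divided before any comparison of the diets. Of the 12 cells, 9 held 3 or more rule genes, with 1299 to 6232 UMIs each and a median of 25.8% mitochondrial UMIs. The other 3 held only Fmod and Wisp2, with 28641, 20387 and 11959 UMIs and 6.49%, 7.17% and 10.3% mitochondrial UMIs, and made up 66.9% of all UMIs of the HFD members. Their Fn1 counts were 304, 146 and 86, while all 9 others had 0. Their Mfap4 counts were 0, 0 and 1, while each of the others held 1 to 20. The first and the second held Thbs1, with 312 and 27 UMIs, and Acan, a cartilage proteoglycan gene, with 11 and 5. All 3 held Acta2 (137, 53 and 54 UMIs) and Tagln (120, 36 and 35), smooth muscle actin and an actin-binding protein. The first held 12 UMIs of the cell cycle gene Top2a, and the third 813 of the haemoglobin gene Hbb-bs. These 3 cells met the rule but went against the label by Mfap4, so results are given for the 9 other cells unless all 12 are named. A doublet score (Scrublet) put 1 of the 3 among the highest 6% of the HFD library, and its own threshold marked 0 members, 0 of 5416 ND and 1 of 2739 HFD cells, so it had not worked.

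**Figure D3:**
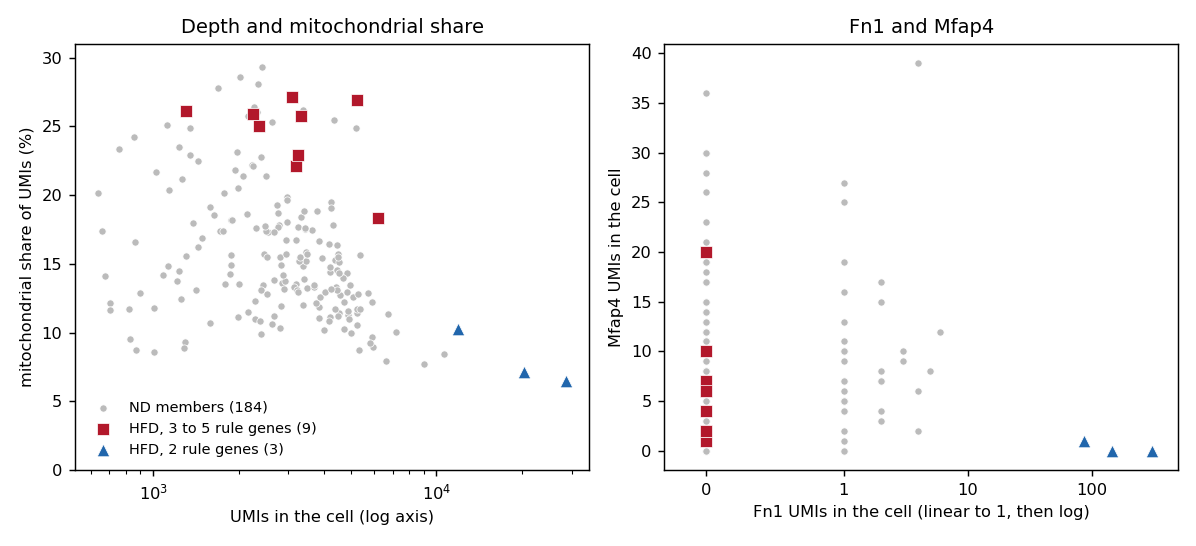
Each of the 196 members by its UMIs (log axis) and mitochondrial share, left, and by its Fn1 UMIs (linear to 1, then log) and Mfap4 UMIs, right. The 3 HFD cells with 2 rule genes (triangles) lie apart on the right of both panels, with 86 to 304 Fn1 UMIs, and the 9 others (squares) share the range of the ND members (grey).

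The 9 HFD cells were chosen for their rule genes, whose levels are again a description. Fmod was at 1787 CPM, against 40.3 in HFD Pi16-type cells, with 1 to 14 UMIs in each cell. Cpxm2 was at 761 CPM against 17.5 and Wisp2 at 662 against 15.4. Rbp4 was in 3 of the 9 cells, at 496 CPM against 1164 in the 164 ND members with 3 or more rule genes, and Hhip in 4, at 298 against 564. Mfap4, outside the rule, was at 1919 CPM against 35.6 in HFD Pi16-type and 246 in HFD Inmt-type cells. Its log2 ratios were 5.75 (5.19-6.32) and 2.96 (2.37-3.56). The 3 deep cells were set aside for their Mfap4 counts, so this level is a description too. Over all 12 HFD members, with 10 CPM added, these ratios were 3.85 and 1.36. Bgn was at 5062 CPM against 1140 in HFD Pi16-type cells, Fbln5 at 1390 against 363 and Sfrp2 at 2415 against 649. Over all 12 HFD members, 325 of 4169 genes (7.8%) were 2-fold or more higher and 395 (9.47%) lower than in HFD Pi16-type cells. Over the 9 cells it was 160 of 4003 (4%) and 151 (3.77%). Of the genes counted as higher than in Pi16-type cells in ND, 145 could also be compared in HFD. Of these, 129 had the same sign there and 78 were again 2-fold or more higher. Of 345 counted as lower in ND, 326 had the same sign and 92 were again 2-fold or more lower. Fn1 had 0 UMIs in the 9 cells, which allows up to 99.3 CPM, against 3701 CPM in HFD Pi16-type cells. The 3 deep cells held 536 UMIs of Fn1. Over all 12 members it was counted as 2-fold or more higher than in HFD Inmt-type cells, so its low level depends on leaving those 3 out.

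The share of fibroblasts that were members differed between the libraries. Members were 17.8% (15.5-20.2) of the 1035 gated fibroblasts in ND and 2.68% (1.39-4.63) of the 448 in HFD, by Clopper-Pearson intervals. Over all kept cells they were 3.40% and 0.438%. With at least 3 rule genes required, which left out the 3 deep HFD cells, the shares were 15.8% (13.7-18.2) and 2.01% (0.923-3.78). Pi16-type cells were 43.7% of gated fibroblasts in ND and 66.1% in HFD, and Inmt-type cells 15% and 10.3%. The mitochondrial limit removed 7215 HFD and 2299 ND barcodes, so the same shares were taken at other limits. They were 17.7% and 2.47% at a limit of 20%, and 17.2% and 3.75% at 50%. Depth differed too. With each cell thinned to 2000 UMIs, shallower cells left out and the rule applied again, the share was 14.3% of 904 ND and 2.67% of 449 HFD fibroblasts. The intervals of the libraries did not overlap under any of the 10 settings plotted, all of which used the same 5 rule genes. In all other kept cells these genes were lower in HFD too. Fmod was at 23.6 CPM in ND and 8.13 in HFD, Wisp2 at 11.6 and 7.43, and Cpxm2 at 13.1 and 6.84. Rbp4 was at 15.7 and 4.62 and Hhip at 9.41 and 0.526. The bearing of these levels on the share was not tested. Since the share is relative to the other cells in a suspension of 2 pooled aortas, fewer members and more of the other fibroblasts cannot be told apart. The suspensions also differed in other cells. Scgb1a1, a club cell marker, was at 10240 CPM in all other kept ND cells and at 0.409 in those of HFD. Whether such differences between the suspensions bear on the share was not tested.

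**Figure D4:**
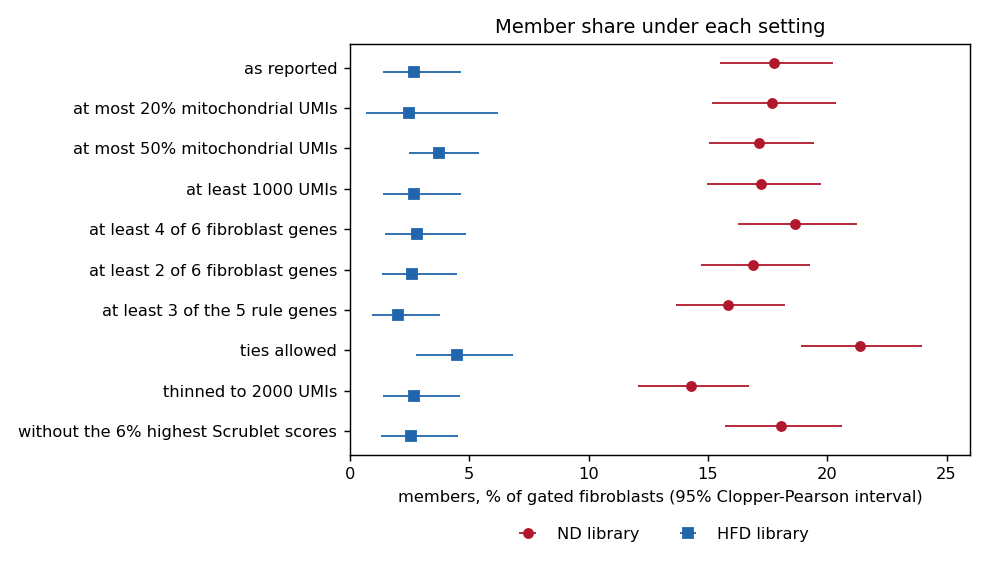
Members as a share of gated fibroblasts (%) in each library under 10 settings of the filter and the rule, with 95% Clopper-Pearson intervals. ND shares ran from 14.3% to 21.4% and HFD shares from 2.01% to 4.46%.

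The comparison of HFD with ND members rests on 9 and 164 cells with 3 or more rule genes. Of 1521 genes compared, 29 (1.91%) were higher and 76 (5%) lower in HFD, with a median of −0.22. In Pi16-type cells, between the same libraries, 67 of 7483 genes (0.895%) were higher and 77 (1.03%) lower. Over all 12 and 184 members, the counts were 140 (7.5%) higher and 258 (13.8%) lower of 1866, with a median of −0.09. Scaling by the median of ratios turned these into 65 higher and 462 lower, with a median of −0.43, so the share of higher genes among those counted fell from 35.2% to 12.3%. Of 1500 genes compared in both cell types, 102 passed the 2-fold measure in members, of which 16 did so in the same direction in Pi16-type cells and 1 in the opposite direction. The 9 HFD cells had more mitochondrial UMIs than the ND members (medians 25.8% and 14.4%). The ratios were therefore also taken against the 41 ND members with 18% to 30%, called of like mitochondrial share below. These were matched by range only. Their medians were 21.7% mitochondrial UMIs and 2149 UMIs per cell, against 25.8% and 3190 in the 9 HFD cells. The ratios were also taken in a separate set of barcodes, those above the 30% limit. These met the rule with 3 or more genes (18 ND and 15 HFD).

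Igfbp5 showed the widest gap among genes with a UMI in both libraries. It was at 1782 CPM in the 184 ND members and was a single UMI in 1 of the 9 HFD cells. The log2 ratio of HFD over ND was −5.67 (−10.97 to −3.19) in members, −5.46 against the ND members of like mitochondrial share, −4.72 above the limit, −0.67 in Inmt-type cells and −1.43 in Pi16-type cells, where levels were 12611 and 4671 CPM. Cyr61 and Ctgf, secreted CCN proteins, were both lower. Cyr61 had 1 UMI in the 9 HFD cells, and its ratio was −4.24 in members, −0.69 above the limit, −1.11 in Pi16-type and −2.47 in Inmt-type cells. Ctgf was at 364 CPM in the 9 HFD cells, with a ratio of −3.22 in members, 0.05 above the limit, −1.30 in Pi16-type and −2.53 in Inmt-type cells. The promoters of Igfbp5 and Cyr61 each held 1 match to the TEAD core, as did that of Cpxm2, whose ratio in members was 0.06 (−0.62 to 0.67).

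Immediate early genes, which respond within minutes to growth factors and to handling of cells, were the list with the most lower genes. Of 14 compared, 10 were lower in the 9 HFD cells and 0 higher (Fos, Jun, Jund, Egr1, Ier2, Ier3, Klf2, Klf4, Nr4a1, Dusp1), with a list median of −1.67. In Pi16-type cells 0 of 15 were lower, with a median of −0.26, but Inmt-type cells had lower values too. The ratio of Jun was −2.15 in members, −2.10 at like mitochondrial share, −1.50 above the limit, −0.56 in Pi16-type and −1.50 in Inmt-type cells. Klf4 was at −2.59, −1.95, 0.48, −0.24 and −1.41 in the same order, and Nr4a1 at −2.46, −2.06, −2.21, −0.27 and −0.72. Fos was at −1.21, −0.78, −0.12, −0.26 and −1.08, and Egr1 at −0.82 in Inmt-type cells. Klf2 had 0 UMIs in the 9 cells, at least 2.48-fold lower, and a ratio of −1.21 in Inmt-type cells. Whether members differed from Inmt-type cells in this was not tested. Diet and library cannot be told apart in these values.

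Of 16 elastic fibre genes, 4 (Eln, Fbn1, Fbln2, Ltbp3) were lower and 0 higher, and of 11 collagen genes 4 (Col6a1, Col6a3, Col12a1, Col15a1) were lower and 0 higher. Their medians were −0.56 and −0.62, and Pi16-type cells were at −0.28 and −0.25. Eln was at 893 CPM in the 9 HFD cells, with 0 to 13 UMIs each, a ratio of −2.71 (−3.31 to −2.16). It was −0.73 above the limit, −1.65 in Pi16-type cells and −3.53 (−4.06 to −3.03) in Inmt-type cells. Over all 12 HFD members the ratio of Eln was 0.28, since the 3 deep cells held 603 of the 630 UMIs. Mfap4 was at −0.48 (−0.88 to −0.10) in members, 0.02 above the limit, −2.61 (−3.04 to −2.20) in Pi16-type and −1.63 (−2.11 to −1.18) in Inmt-type cells. Fmod, a gene of the rule, was at 0.13 in members. Over all 12 and 184 members the ratio of Mfap4 was −1.98 with 10 CPM added. The 3 deep cells, set aside for their Mfap4 counts, held 1 UMI of it.

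Complement and a few secreted proteins were higher. Of 7 complement genes compared, C3 and C4b were higher and 0 lower. C3 was at 2481 CPM in the 9 HFD cells, found in 7 of them, with a ratio of 2.29 (1.90-2.67), 2.14 above the limit, 0.63 in Pi16-type and 1.03 in Inmt-type cells. C4b was at 1290 CPM, with a ratio of 2.38, 2.54 above the limit, 1.47 in Pi16-type and 0.26 in Inmt-type cells. Mmp3 was at 2779 CPM, found in 4 of the 9 cells, with 1.67, 2.02, 1.31 and −0.027 in the same order. The chemokine Cxcl12 was at 1059 CPM, found in 5 of the 9 cells, with 1.34, 2.02, 1.47 and 1.44. Serpina3n, an acute-phase protease inhibitor, was at 562 CPM against 76.9 in the 164 ND members. Its ratio was 2.87 in members, 2.36 in Pi16-type and 2.65 in Inmt-type cells. Above the limit it was 1.19 (−2.45 to 6.90), from 1 ND and 3 HFD UMIs. Gas6, a ligand of the TAM receptors, was at 2746 CPM against 879, a ratio of 1.64 (1.29-1.98) in members and −0.45 in both Pi16-type and Inmt-type cells. Of 4 lipid uptake and sterol genes compared, Lpl, which encodes lipoprotein lipase, and Fabp4, a fatty acid binding protein, were higher, at ratios of 1.60 and 1.47, with 18 UMIs each. The ratio of Lpl was −0.98 above the limit, 0.60 in Pi16-type and 2.23 in Inmt-type cells, and that of Fabp4 0.60, 0.82 and 0.87. In all other kept cells Lpl was at 536 CPM in ND and 1054 in HFD, and Fabp4 at 11981 and 15926. The part of RNA from those cells in the 18 UMIs of either gene was not tested.

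The genes ranked by their ratio over all 12 HFD members differ at the high end, since the 3 deep cells set it. Hbb-bt, Fn1, Gja1, Tagln, Hbb-bs, Timp1, Hba-a2, Acta2, Hba-a1 and Vcam1 were the highest, and Fn1, Tagln, Hbb-bs, Hba-a2, Acta2, Hba-a1 and Vcam1 changed sign over the 9 cells. The Fn1 ratio was 5.62 over all 12, and 0 of its 536 UMIs came from the 9. Erythroid RNA moved with this split, at 17202 CPM in all 12 HFD members, 463 in the 9 cells and 943 in the ND members. Among genes with 3 or fewer UMIs in ND members, Cemip, Cthrc1, Igfbp2 and Actg2 had 0 UMIs in the 9 HFD cells, except for 1 UMI of Cthrc1. The lowest were Igfbp5, Nr4a1, Klf4, Dio2, Gxylt2, Tgfbi, Igf1, Pik3r1, Ccdc3 and Igfbp6. Dio2, which activates thyroid hormone, had a ratio of −3.06 over all 12 and −1.47 over the 9 cells. Gxylt2 was at −2.87 and −1.66, Pik3r1 at −2.78 and −3.24, Ccdc3 at −2.75 and −1.24, and Igfbp6 at −2.58 and −1.04. Against ND members of like mitochondrial share, Dio2 was at −0.27, Gxylt2 at −1.73, Pik3r1 at −3.53, Ccdc3 at −0.36 and Igfbp6 at 0.00024. Above the limit, Dio2 was at −1.40, Pik3r1 at −1.05, Gxylt2 at 1.09, Ccdc3 at 1.60 and Igfbp6 at 0.86. Tgfbi was at −1.31 in the 9 cells, −1.08 at like mitochondrial share, −0.40 above the limit and −1.35 in Pi16-type cells. Igf1 was at −1.29, −1.03, 0.41 and −1.62 in the same order, with 8 ND and 14 HFD UMIs above the limit. Of the genes with 3 or fewer HFD UMIs, Ackr3, Angptl7, Adamtsl2, Ebf1 and Klf2 had the most ND UMIs. Ackr3, a decoy receptor of Cxcl12, was at 531 CPM in ND members and 1 UMI in HFD members. Ebf1 was at least 2.95-fold and Adamtsl2 at least 2.81-fold lower over the 9 cells, and Angptl7 had 2 UMIs in them. Above the limit the ratio was 0.92 for Ebf1 (4 ND and 10 HFD UMIs), 0.13 for Adamtsl2, 0.92 for Klf2, −0.98 for Angptl7 and −1.40 for Ackr3.

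**Figure D5:**
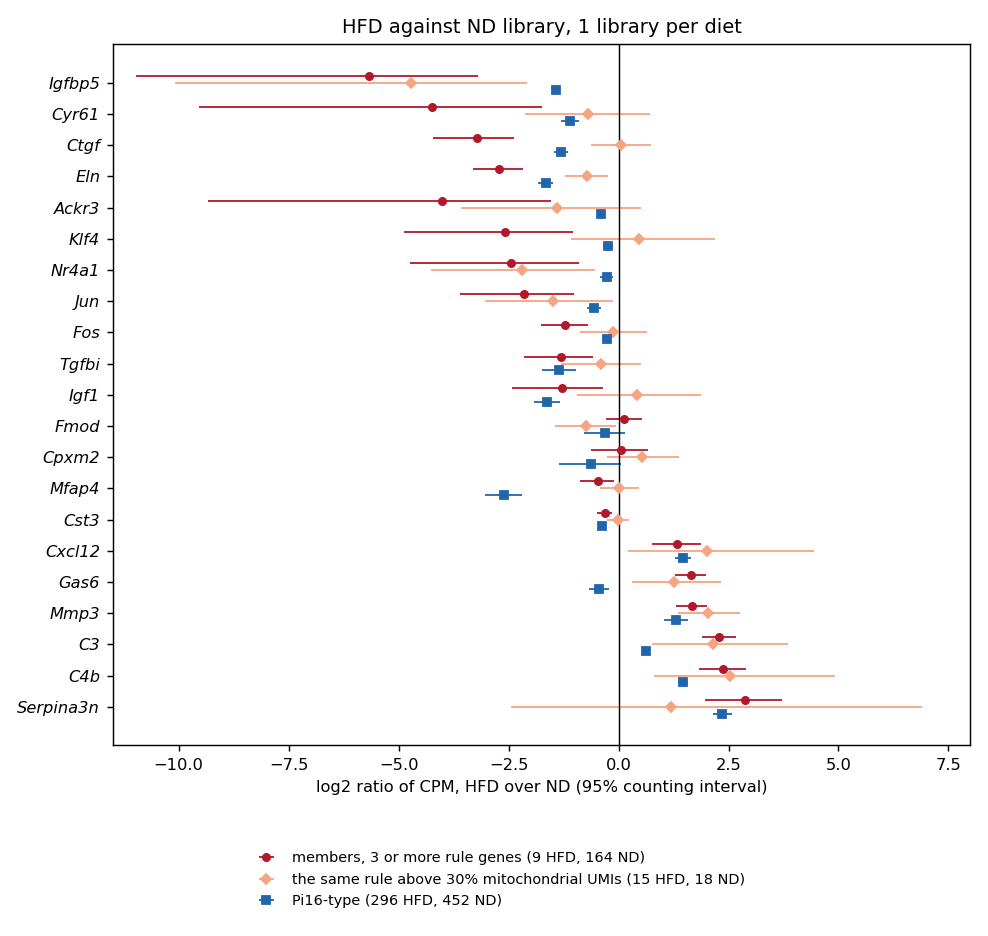
Log2 ratio of CPM, HFD over ND, with 95% counting intervals, for 21 genes in members with 3 or more rule genes (circles), in barcodes above 30% mitochondrial UMIs that met the same rule (diamonds) and in Pi16-type cells (squares). Igfbp5 was left of 0 and C3, C4b, Mmp3 and Cxcl12 right of 0 in all 3 sets, whereas Ctgf and Klf4 were low in members but at 0.05 and 0.48 above the limit.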

How the data were processed

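Single-cell RNA-seq of Apoe−/− mouse aortic arch was measured in 1 ND and 1 HFD library. The authors deposited UMI counts per gene and barcode, which the file headers give as Cell Ranger 3.0.1 output. The submitters' processing notes also name mm10, Seurat 3.2.0 and R 4.0.0. No cell annotation was used here, so cells were classed by the rule in the text, and the members and gene lists were chosen with earlier results of these data known. Barcodes were kept with at least 200 genes and 200 UMIs and at most 30% mitochondrial UMIs, and no doublet was removed, since Scrublet's own threshold marked 0 ND and 1 HFD cells.

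Counts were summed over the cells of a class and library, and 1 library per diet allowed no test across samples. Intervals are exact Poisson for CPM, Clopper-Pearson for shares and conditional binomial for ratios, at 95%. They cover counting error only, and cells of 1 library are not replicates. The ND members held 570550 UMIs and the HFD members 91212, of which 30225 were in the 9 cells with 3 or more rule genes. A gene was compared with at least 50 UMIs over both sides, and called past 2-fold with 10 CPM added to both sides and an interval on one side of 0. List medians use the same 10 CPM, while printed ratios of single genes add nothing. A count of 0 was replaced by 3 UMIs over the group to give a bound.

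Named genes were the rule genes and Apoe, the 8 highest and 8 lowest against each other class by the weaker ratio of both libraries (same sign in both, detected in at least 25% of the cells of the higher group), the 10 highest and 10 lowest between diets over all members (at least 4 UMIs in each library), 5 genes in each direction with 3 or fewer UMIs in 1 library, and up to 4 per list past 2-fold. A few genes that the rule names are not reported here. Alternatives changed the mitochondrial, UMI and fibroblast limits, the rule, the scaling, the added CPM, the UMI minimum, thinning and doublets. The count of columns of other series was 0. Python 3.11.15, numpy 2.4.6, scipy 1.17.1, pandas 2.3.3, scanpy 1.11.5 and matplotlib 3.10.9 were used, and the ratio code was tested on simulated data. Positions are from GENCODE M21 (GRCm38) and promoters from RefSeq (GRCm38.p6).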

Additional observations from a re-analysis of the deposited data

Results flagged for a closer look

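Barcodes above 30% mitochondrial UMIs took no part in the comparisons of the classes, and members were found there too. Of the gated fibroblast barcodes above the limit, 37 of 249 in ND met the member rule, a share of 14.9% (10.7-19.9), where a count of 0 would allow up to 1.20%. In HFD it was 22 of 434, a share of 5.07% (3.20-7.57), where a count of 0 would allow up to 0.691%. Their medians were 54.5% and 45.6% mitochondrial UMIs and 1207 and 1895.5 UMIs. They held Mfap4 at 2560 CPM in ND and 2691 in HFD, Sfrp2 at 2108 and 1302, and Fn1 at 21.5 and 65.1.

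The haemoglobin gene Hba-a1 went opposite ways between the diets in both cell types, and the difference was not tested. In members with 3 or more rule genes its log2 ratio of HFD over ND, with 10 CPM added, was −1.84, from 264 to 66.2 CPM. In Pi16-type cells it was 2.28, from 243 to 1217 CPM. The 9 HFD cells held 30225 UMIs in all, so 66.2 CPM rests on very few UMIs. Over all 12 HFD members Hba-a1 was among the 10 genes highest in HFD, so its direction in members depends on leaving out the 3 deep cells.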

How the results depend on the processing

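No paired analysis was possible because each diet has 1 library, and no replicate could be left out. Of the results that answer a comparison, 61 stayed near their value under an alternative and 25 moved. The ND share of members (17.8%) was 21.4% with ties allowed and 14.3% when thinned to 2000 UMIs. Mfap4 in all 12 HFD members (647 CPM) was 1919 with 3 or more rule genes, 164 at a mitochondrial limit of 20%, 896 when scaled without mitochondrial, haemoglobin and ribosomal protein genes, and 1509 as the mean over cells. In ND (2578 CPM) the last pair gave 3357 and 2763. Against Pi16-type cells in ND (295 higher, 480 lower) the counts were 155 and 169 with 50 CPM added and 184 and 312 when thinned. Against Inmt-type cells (112 and 102) they were 69 and 61 with 50 CPM added and 190 and 225 at a minimum of 20 UMIs. The lower count there was 54 at 100 UMIs and 58 when thinned. Between diets (140 higher, 258 lower over all members) they were 29 and 76 with 3 or more rule genes, 38 and 148 by the mean over cells, 65 and 462 with the median of ratios, 72 and 163 at 100 UMIs, and 19 and 52 when thinned. At 20 UMIs 282 genes were higher. With 3 or more rule genes and 18% to 30% mitochondrial UMIs, an alternative chosen after seeing the data, they were 12 and 24.

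Of single genes, 711 values stayed, 323 moved and 20 changed sign. The values that changed sign are given with 10 CPM added. With 3 or more rule genes, which leaves out the 3 deep HFD cells, the ratio between diets was −3.73 for Fn1, −2.54 for Tagln, −0.57 for Hbb-bs, −1.49 for Hba-a2, −0.15 for Acta2, −1.84 for Hba-a1, −0.18 for Vcam1 and −0.25 for Igfbp2. In HFD, Acta2 was −0.069 against Pi16-type cells and Col12a1 −1.69 against Inmt-type cells. With the mitochondrial range added it was −0.29 for Hbb-bt, −2.39 for Fn1, −1.64 for Tagln, −2.04 for Hbb-bs, −3.20 for Hba-a2, −0.095 for Acta2, −3.67 for Hba-a1 and 0.00023 for Igfbp6. Thinning gave 0.30 for Igfbp6, and a mitochondrial limit of 20% gave −3.47 for Mmp3 in HFD against Inmt-type cells. The cause was not tested.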

Other observations

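The ND members differed among themselves in a few sparse genes. Comp, a cartilage and tendon matrix gene, was found in 33 of the 184 ND members, and 18 cells held 90.7% of its UMIs. Set beside the 151 members without it, these cells held Eln at 7409 CPM against 5232, Ctgf at 4447 against 3064 and Prelp at 1357 against 955. They held Hhip at 265 CPM against 609 and Igfbp5 at 1033 against 1976, while Mfap4 was at 2569 against 2581. Since the cells were split by their own Comp counts, these are descriptions of 1 library. Mmp3 was found in 61 members, of which 28 (45.9%) also held C3, against 35 of the 123 others (28.5%).

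Thbs1 and the cardiac transcription factor gene Tbx20 were found in the same 3 ND members, of 4480, 5240 and 5072 UMIs. They held 4, 38 and 5 UMIs of Thbs1 and 8, 12 and 11 of Tbx20, and no UMI of Hhip or Rbp4. Of 12 regional transcription factor genes compared with Pi16-type cells, Tbx20, Hand2, Meox2 and Foxd1 were higher and Tcf21, Wt1 and Twist1 lower. Hand2 was at 61.3 CPM in ND members against 11.4, and Meox2 at 70.1 against 20. Of 9 heat shock genes, 0 were past 2-fold in either direction, and of 15 immediate early genes only Jun was, at a higher level in members.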
